A study of Mus musculus with 6 samples.

Results

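Respiratory complexes II to V are the enzymes of the inner mitochondrial membrane that, together with complex I, carry out oxidative phosphorylation. Their nuclear-encoded subunit genes were taken here as the probe sets whose only symbol in the platform annotation is Sdha, Sdhb, Sdhc, Sdhd or Cyc1, or starts with Uqcr, with Cox4 to Cox8 or with Atp5. Each gene was represented by its brightest probe set over the 6 arrays. This gave 47 genes of the 19938 with a symbol of their own, namely 4 of complex II, 9 of complex III, 17 of complex IV and 17 of complex V. Another 3 probe sets carried the symbol of the subunit gene Cox7c together with that of another gene and were not used.

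The study profiled whole tibialis anterior, a limb muscle, with 1 Affymetrix array per sample. The control group was 3 arrays from C57Bl6J mice, and the other group was 3 arrays from mice labelled MLC-SOCS-3 on the same background. All the mice were 11 weeks old and had been starved for 6 h before the muscle was frozen. SOCS-3 is an intracellular inhibitor of cytokine and insulin receptor signalling, and the labels do not spell out the MLC element that directs the transgene. They also do not say that replicates are separate animals, so each p measures the spread among these arrays, which may be technical. The muscle fibre genes Acta1, Ckm, Mb, Myh4, Tnnt3 and Actn3 were bright on every array. Their mean was 14.23 to 14.25 in controls and 14.22 to 14.26 on the arrays labelled MLC-SOCS-3. Of these genes, Myh4, Tnnt3 and Actn3 are also in the fast fibre list used below. Socs3 itself read 7.37, 7.41 and 7.43 in controls and 7.07, 7.12 and 7.25 on the arrays labelled MLC-SOCS-3 (log2 RMA intensity). It was not higher there (limma adjusted p = 0.80), and the sources used here do not say whether its probes lie in the transgene, so directions below hold for the arrays as labelled.

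Complex II, succinate dehydrogenase, passes electrons from succinate to ubiquinone. Complex III passes them from ubiquinol to cytochrome c, and complex IV, cytochrome c oxidase, from cytochrome c to oxygen. Complexes III and IV pump protons, and complex V, the ATP synthase, uses the proton gradient to make ATP. Muscle fibres differ in how much of these enzymes they hold, with slow and oxidative fibres richest. Several cytochrome c oxidase subunits exist as a form of heart and skeletal muscle (Cox6a2, Cox7a1, Cox8b) and a form of most other tissues (Cox6a1, Cox7a2, Cox8a).

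The upstream sequences of these isoform genes are shown because the isoform pairs let the make-up of complex IV differ between tissues, and because Cox6a1 had the smallest p among the 47 genes. Each is the 250 bases before the RefSeq transcription start on GRCm38.p6, read 5′ to 3′ on the gene's strand. Capitals mark the letters of 5 motifs searched on both strands, which were GCGCATGC (core of the nuclear respiratory factor 1 motif), CCGGAAG (ETS family core, which GABP binds), TCAAGGTCA (estrogen-related receptors), AAGATGGCG (YY1) and GGGCGG (SP family). The windows lie at chr5:115348959-115349208 for Cox6a1 (minus strand), chr9:79759854-79760103 for Cox7a2 (minus), chr7:30183921-30184170 for Cox7a1 (plus), chr19:7217617-7217866 for Cox8a (minus) and chr7:140900447-140900696 for Cox8b (minus).
Cox6a1: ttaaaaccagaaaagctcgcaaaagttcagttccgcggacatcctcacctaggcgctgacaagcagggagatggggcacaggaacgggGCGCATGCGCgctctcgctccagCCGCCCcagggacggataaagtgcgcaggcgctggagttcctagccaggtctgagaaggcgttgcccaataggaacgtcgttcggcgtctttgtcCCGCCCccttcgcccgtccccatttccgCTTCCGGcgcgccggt
Cox7a2: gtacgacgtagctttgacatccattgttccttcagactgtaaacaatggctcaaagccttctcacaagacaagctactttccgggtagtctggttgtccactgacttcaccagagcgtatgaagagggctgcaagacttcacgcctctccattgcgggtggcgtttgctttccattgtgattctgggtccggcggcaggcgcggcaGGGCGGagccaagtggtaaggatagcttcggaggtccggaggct
Cox7a1: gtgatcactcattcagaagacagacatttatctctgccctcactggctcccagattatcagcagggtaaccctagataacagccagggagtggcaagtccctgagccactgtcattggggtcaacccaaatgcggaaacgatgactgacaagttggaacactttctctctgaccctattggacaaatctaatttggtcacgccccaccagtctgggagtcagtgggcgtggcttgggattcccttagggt
Cox8a: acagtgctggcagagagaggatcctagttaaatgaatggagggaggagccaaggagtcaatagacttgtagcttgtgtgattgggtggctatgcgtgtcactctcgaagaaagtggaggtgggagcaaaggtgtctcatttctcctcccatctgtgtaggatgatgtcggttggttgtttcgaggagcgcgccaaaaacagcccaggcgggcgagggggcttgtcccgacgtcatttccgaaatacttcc
Cox8b: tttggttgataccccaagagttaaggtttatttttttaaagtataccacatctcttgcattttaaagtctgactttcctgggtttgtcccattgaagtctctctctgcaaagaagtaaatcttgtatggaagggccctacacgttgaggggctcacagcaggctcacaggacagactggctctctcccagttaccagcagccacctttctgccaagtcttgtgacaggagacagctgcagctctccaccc

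The Cox6a1 window held the NRF1 core on both strands, starting 162 and 160 bases before the start, where the matches overlap in a palindrome. It also held the ETS core 16 bases before the start and the SP motif at 139 and 44 bases. Cox7a2 held only an SP match, 44 bases before the start, and the windows of Cox7a1, Cox8a and Cox8b held none of the 5 motifs. Of the 47 genes, 35 had an entry in the promoter table, and Cox6a2 and Uqcrb were among those without one. The NRF1 core was in the windows of 5 of the 35 (14.3%) against 2.56% of all 27025 genes in the table, and the ETS core in 9 (25.7%) against 7.83%. The genes with both were Cox6a1 and Atp5l, 5.71% of the 35 against 0.37% of all genes. SP matches were in 34.3% of the 35 and 35.4% of all genes. The estrogen-related receptor motif was found in 1 of the 35, Atp5g3 (2.86%, against 0.422% of all genes). The YY1 motif was also found in 1, Atp5j (2.86%, against 0.71%). A match is only a run of letters in this window and says nothing of whether a factor binds there.

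The 47 genes were among the brightest on the arrays and differed little between the groups. Of these genes, 44 lay above 5.99, the median probe set, and 28 had a mean above 12. Their differences, given as MLC-SOCS-3 minus control, ran from -0.20 to 0.18 on the log2 scale, and 41 of 47 were smaller than 0.1 in either direction. The median size of the difference, sign aside, was 0.034 for the 47 genes and 0.074 for all 19938 genes. It was 0.040 for the 34 complex I genes (symbols starting with Nduf, defined below). The median SD within a group was 0.046 for the 47 genes, 0.054 for complex I and 0.112 for all genes. The median levels of these sets were 12.12, 11.43 and 6.42, so small differences and spread were shared with bright complex I genes. The 95% interval of the difference lay inside a 1.25-fold change in either direction for 44 of the 47 genes, the exceptions being Cox6a1, Cox6b2 and Cox8c, and inside 1.5-fold for all 47. Array intensities can saturate at the bright end, which was not tested here, so a true change could exceed the measured one.

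**Figure D1:**
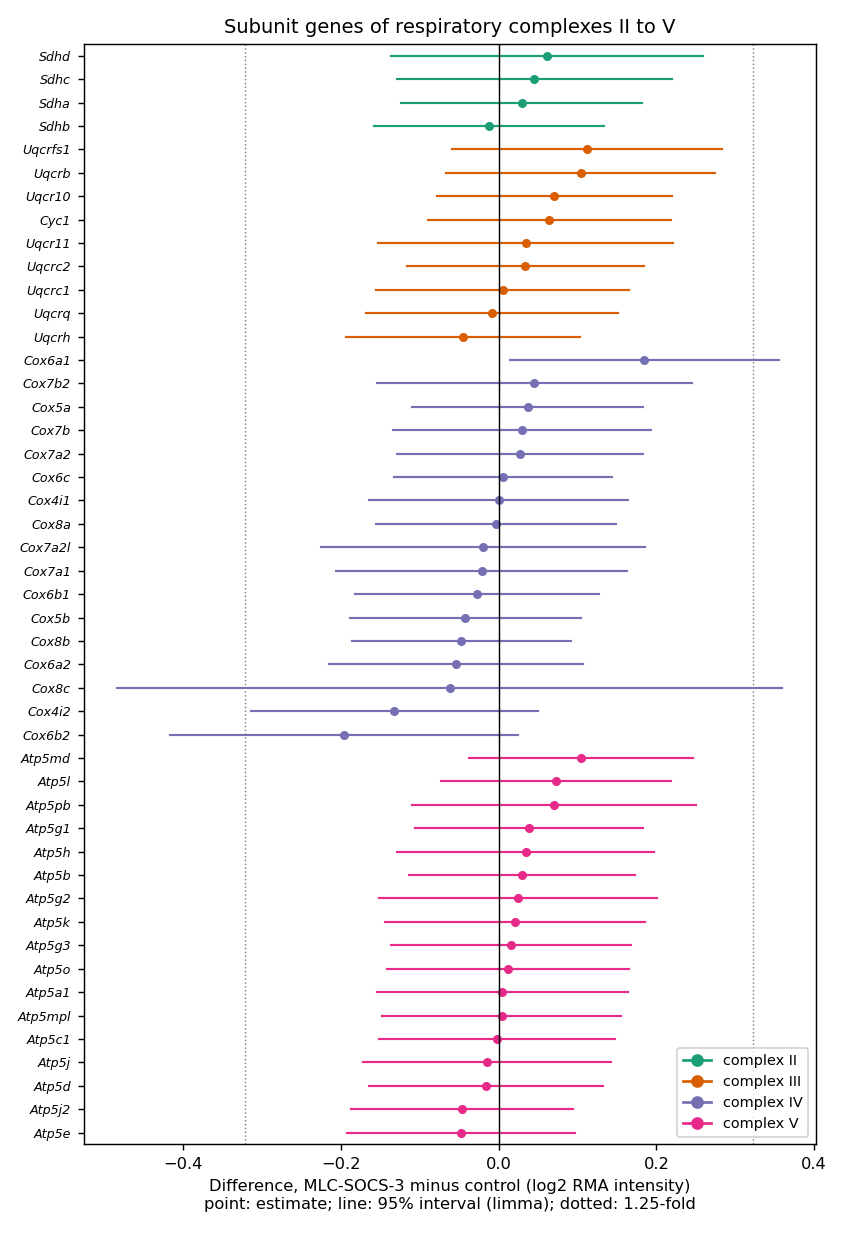
Difference between MLC-SOCS-3 and control for each of the 47 genes (horizontal axis, log2 RMA intensity), with limma's 95% interval as a line and colour for the complex. The interval of Cox6a1 alone leaves 0 out, and those of Cox6a1, Cox6b2 and Cox8c reach past the dotted lines at 1.25-fold.

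No gene of complexes II to V passed limma's test over all 35557 probe sets (0 of 47, and 0% of all probe sets), with adjusted p-values of 0.825 to 1. At an unadjusted p under 0.05 there was 1 of the 47 (2.13%), Cox6a1. The share of all probe sets was 5.92% in either direction and 2.52% in the higher direction. Of the 47 differences 29 were positive and 18 negative, with a median of 0.012 beside -0.0094 for all probe sets. With every array centred on its own median, the split was 35 positive and 12 negative, and the medians 0.031 and 0.010. The median of the 47 differences moved to 0.0011 without control replicate 2, to 0.0022 without MLC-SOCS-3 replicate 1, to 0.024 without control replicate 1 and to 0.026 without MLC-SOCS-3 replicate 2. The 34 complex I genes, taken in the same way from symbols starting with Nduf without assembly factors and Ndufa4, had a median of 0.019, with 23 positive and 2 at an unadjusted p under 0.05.

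**Figure D2:**
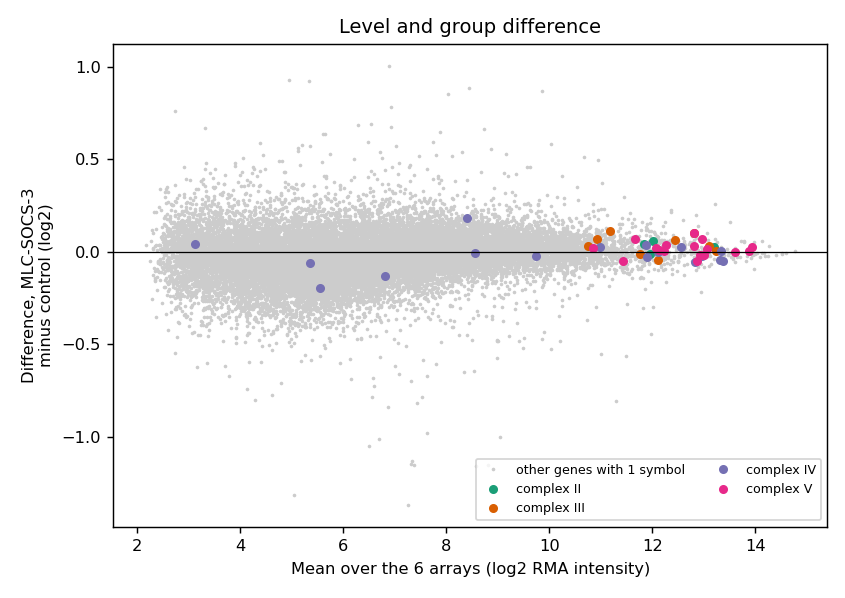
Mean over the 6 arrays (horizontal axis, log2 RMA intensity) and the difference between groups (vertical axis, log2) for all genes with 1 symbol in grey and the subunit genes in colour. The subunit genes gather at the bright end, where differences of all genes are narrow, and lie between -0.20 and 0.18.

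In 5 of the 47 genes every array labelled MLC-SOCS-3 read higher than every control, against 5.04% of all probe sets. These were Uqcr10 and Uqcrfs1 of complex III, Cox6a1 of complex IV, and Atp5l and Atp5md of complex V. In 4 genes every such array read lower, against 6.76% of all probe sets, namely Cox4i2, Cox6b2 and Cox8b of complex IV and Atp5j2 of complex V. Together these 9 genes were 19.1% of the 47, against 11.8% of all probe sets and 26.5% (9 of 34) of the complex I genes. None of the 9 genes of complexes II to V had a limma adjusted p under 0.825.

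All 4 subunits of complex II overlapped between the groups. Sdha, the flavoprotein that oxidises succinate, read 13.21, 13.12 and 13.23 in controls and 13.23, 13.19 and 13.22 in the group labelled MLC-SOCS-3, a difference of 0.03 ± 0.06 (SE). Sdhb, the iron-sulfur subunit, read 11.98, 11.95 and 11.96 against 11.91, 11.99 and 11.95 (-0.01 ± 0.06). The low array differed between these 2 catalytic subunits, being control replicate 2 for Sdha and MLC-SOCS-3 replicate 1 for Sdhb. The membrane anchors Sdhc and Sdhd bind ubiquinone. Sdhc read 11.89, 11.73 and 11.83 in controls and 11.91, 11.86 and 11.81 in the other group (0.05 ± 0.07). Sdhd read 11.98, 11.88 and 12.09 against 11.97, 12.05 and 12.10 (0.06 ± 0.08). In both anchors control replicate 2 was the lowest array, and the other controls lay among the arrays labelled MLC-SOCS-3. The unadjusted p-values of the complex, from limma's fit, were 0.48 and above, and its median difference was 0.037.

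Complex III had 7 positive and 2 negative differences, with a median of 0.034 and none past the test. Uqcrfs1, the Rieske iron-sulfur protein, read 11.17, 11.04 and 11.18 in controls and 11.23, 11.20 and 11.30 on the arrays labelled MLC-SOCS-3. The groups did not overlap, although the nearest arrays, control replicate 3 and MLC-SOCS-3 replicate 2, were closer than the SD of either group. The difference was 0.11 ± 0.07 (SE; limma adjusted p = 0.863). Uqcrb, which lies at the ubiquinone site, read 12.75, 12.71 and 12.83 against 12.80, 12.93 and 12.88, a difference of 0.10 ± 0.07 (adjusted p = 0.863). Control replicate 3 lay above MLC-SOCS-3 replicate 1 here, and the 3 probe sets of Uqcrb gave 0.10 to 0.12.

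Uqcr10, a small subunit of the complex, read 10.93, 10.84 and 10.89 in controls and 10.99, 10.93 and 10.96 in the other group (0.07 ± 0.06), with the groups separated by less than their SD. Cyc1, which encodes cytochrome c1, read 12.45, 12.36 and 12.40 against 12.44, 12.52 and 12.45 (0.06 ± 0.06). Its groups overlapped through control replicate 1. Uqcrh, the hinge protein that meets cytochrome c1, went the other way, at 12.17, 12.11 and 12.15 against 12.06, 12.12 and 12.12 (-0.05 ± 0.06). The core proteins Uqcrc1 and Uqcrc2 and the small subunits Uqcr11 and Uqcrq differed by -0.0087 to 0.034. The other, dimmer probe set of Uqcr11 gave 0.12 ± 0.09 (SE), with overlapping groups.

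Complex IV gave 7 positive and 10 negative differences, with a median of -0.020, and it held both the highest and the lowest of the 47. Cox6a1, the subunit VIa isoform of most tissues, read 8.32, 8.35 and 8.25 in controls and 8.42, 8.49 and 8.57 on the arrays labelled MLC-SOCS-3. Each array with the transgene label thus exceeded each control. The difference was 0.18 ± 0.07 (SE), a 1.14-fold higher intensity with a 95% interval of 0.01 to 0.36 on the log2 scale. Its unadjusted p in limma was 0.0381 and its adjusted p 0.825. That unadjusted p was 0.0365 without MLC-SOCS-3 replicate 1, and lay between 0.0554 and 0.115 when any other array was left out.

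Its striated muscle counterpart Cox6a2 read 12.91, 12.83 and 12.80 in controls and 12.84, 12.78 and 12.75 in the other group. The groups overlapped and the difference was -0.05 ± 0.07 (SE). Taken within each array, Cox6a2 minus Cox6a1 was 4.59, 4.48 and 4.54 in controls and 4.42, 4.30 and 4.18 on the arrays labelled MLC-SOCS-3. The balance of the pair fell by 0.24 between the group means, and the groups did not overlap. The exact two-sided permutation test gave p = 0.10, the smallest that 3 arrays against 3 allow, and 0.30 after Benjamini-Hochberg adjustment over the 3 pairs.

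The other isoform pairs overlapped between the groups. Cox7a1, the muscle form of subunit VIIa, read 13.08, 12.87 and 12.99 in controls and 12.94, 12.96 and 12.98 in the other group (-0.02 ± 0.08, SE). Its counterpart Cox7a2 read 10.92, 10.93 and 11.03 against 11.01, 10.97 and 10.98 (0.03 ± 0.06). The controls spread more widely than the other group for both genes. The difference within arrays, Cox7a1 minus Cox7a2, fell by 0.049 from a control mean of 2.02 ± 0.12 (SD, n = 3; exact permutation test, p = 0.80), and without control replicate 1 its change was 0.021.

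For subunit VIII, the muscle form Cox8b read 13.39, 13.38 and 13.39 in controls and 13.36, 13.32 and 13.34 in the other group (-0.05 ± 0.06, SE). These narrow groups did not overlap. The difference was within the moderated error, which borrows its size from all probe sets (limma adjusted p = 0.911). Cox8a, the form of most tissues, read 8.59, 8.58 and 8.54 against 8.59, 8.51 and 8.60 (-0.003 ± 0.06). Cox8b minus Cox8a was 4.82 ± 0.03 in controls and 4.77 ± 0.04 in the other group (SD, n = 3; exact permutation test, p = 0.30, and 0.45 adjusted over the 3 pairs). The 3 muscle isoforms were all negative, with differences of -0.02 to -0.05, each smaller than its SE.

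**Figure D3:**
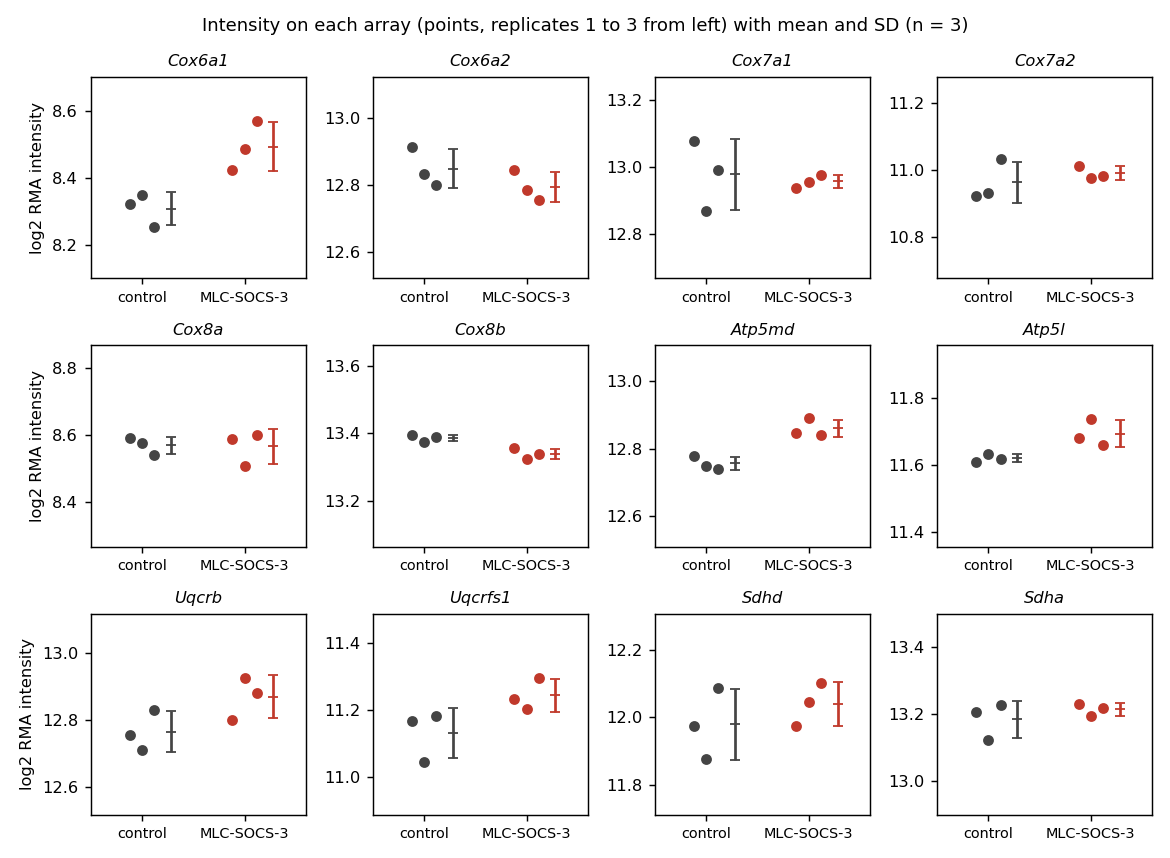
Log2 RMA intensity on each array (points) with the mean and SD of each group (n = 3), for the 3 isoform pairs of complex IV and for members of complexes II, III and V. Every vertical axis spans 0.6, and Cox6a1, Cox8b, Atp5md, Atp5l and Uqcrfs1 are the panels in which the groups do not overlap.

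The remaining isoform genes of complex IV are those of other tissues. Cox6b2, a form of testis, read 5.72, 5.64 and 5.59 in controls and 5.57, 5.30 and 5.50 in the group labelled MLC-SOCS-3, a difference of -0.20 ± 0.09 (SE; limma unadjusted p = 0.0721, adjusted p = 0.831). The groups did not overlap, but this gene lay below the median probe set on all 6 arrays. The other testis forms, Cox7b2 and Cox8c, also lay below it, with means over the 6 arrays of 3.13 and 5.36. Cox4i2, the subunit IV form of lung, read 6.86, 6.94 and 6.85 against 6.65, 6.79 and 6.82 (-0.13 ± 0.07), without overlap. Cox4i1, the form of most tissues, had means of 12.11 ± 0.05 and 12.11 ± 0.06 (SD, n = 3) in the 2 groups.

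The genes Cox5a, Cox5b, Cox6b1, Cox6c and Cox7b encode subunits with no muscle form, and their differences ran from -0.042 to 0.037. Cox6c was at 13.33 ± 0.01 in controls and 13.33 ± 0.002 in the other group (SD, n = 3). Its other probe set varied more, at 13.21 ± 0.07 and 13.16 ± 0.05, and its difference was -0.05 ± 0.07 (SE). Cox7a2l, a factor that joins complexes III and IV into supercomplexes, was at -0.02 ± 0.08 (SE), and its other probe set gave 0.08.

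Complex V gave 12 positive and 5 negative differences, with a median of 0.016. Among the subunits that turn and catalyse, Atp5a1 and Atp5b of the catalytic head and Atp5c1 and Atp5d of the central stalk differed by -0.017 to 0.030. Atp5e, the epsilon subunit of that stalk, read 11.47, 11.42 and 11.45 in controls and 11.36, 11.42 and 11.41 in the other group (-0.05 ± 0.06, SE), with an overlap through control replicate 2. The genes Atp5g1, Atp5g2 and Atp5g3 encode the same c subunit of the proton-driven ring with different targeting peptides. Atp5g1 read 12.27, 12.20 and 12.26 against 12.29, 12.26 and 12.30 (0.04 ± 0.06). Atp5g2 read 12.083, 12.077 and 12.026 against 12.184, 12.072 and 12.002 (0.02 ± 0.07), so the arrays labelled MLC-SOCS-3 held both its highest and its lowest value. Atp5g3 read 13.05, 13.04 and 13.08 against 13.10, 13.01 and 13.10 (0.02 ± 0.06).

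The largest differences of complex V were those of Atp5md and Atp5l, small subunits of its membrane part. Atp5md, also known as DAPIT, read 12.78, 12.75 and 12.74 in controls and 12.85, 12.89 and 12.84 on the arrays labelled MLC-SOCS-3, and the groups did not overlap. The difference was 0.10 ± 0.06 (SE; limma unadjusted p = 0.124, adjusted p = 0.859), and its 3 probe sets gave 0.087 to 0.14. When the moderation was robust and followed a mean-variance trend, its unadjusted p was 0.0082 and its adjusted p 0.774, within a range of 0.774 to 0.977 over all alternatives. Atp5l, the g subunit, read 11.61, 11.63 and 11.62 against 11.68, 11.74 and 11.66 (0.07 ± 0.06), again without overlap. All 6 of its probe sets were positive, from 0.045 to 0.12, but they carry the same symbol on the same arrays and are not independent. Where the several probe sets of a gene lie in the genome was not checked here.

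Atp5pb, subunit b of the stalk that holds the head still, read 12.93, 12.86 and 13.01 in controls and 12.93, 13.06 and 13.03 in the other group (0.07 ± 0.07, SE). Control replicate 3 lay between the arrays labelled MLC-SOCS-3. Atp5j2, the f subunit of the membrane part, read 12.90, 12.88 and 12.90 against 12.82, 12.86 and 12.87 (-0.05 ± 0.06), lower on every array labelled MLC-SOCS-3. The stalk subunits Atp5h, Atp5j and Atp5o and the membrane subunits Atp5k and Atp5mpl differed by -0.015 to 0.034. Of the 12 genes of complexes II to V with several probe sets, 9 gave 1 sign in all of them, and Cox6c, Cox7a2l and Cox7b did not.

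The arrays of a group did not move as one. Control replicate 2 was the lowest array for 21 of the 47 genes (44.7%), against 19.0% of all genes. It was the lowest for 3 of 4 genes in complex II, 6 of 9 in complex III, 5 of 17 in complex IV and 7 of 17 in complex V. Its median deviation from the 6-array mean of each gene was -0.094, -0.062, -0.021 and -0.041 in these complexes and -0.0056 over all genes. The median deviation of the complex I genes on this array was -0.059. In complex IV control replicate 1 was the highest array for 8 of 17 genes, where it was the highest for 25.3% of all genes, and MLC-SOCS-3 replicate 2 was the lowest for 7 of 17 (41.2%), against 22.2% of all genes. Over all 47 genes the median deviation was 0.0084, -0.0425 and 0.0132 on control replicates 1 to 3 and 0.0132, -0.0030 and 0.0061 on MLC-SOCS-3 replicates 1 to 3. The groups overlapped, and control replicate 2 stood lowest.

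**Figure D4:**
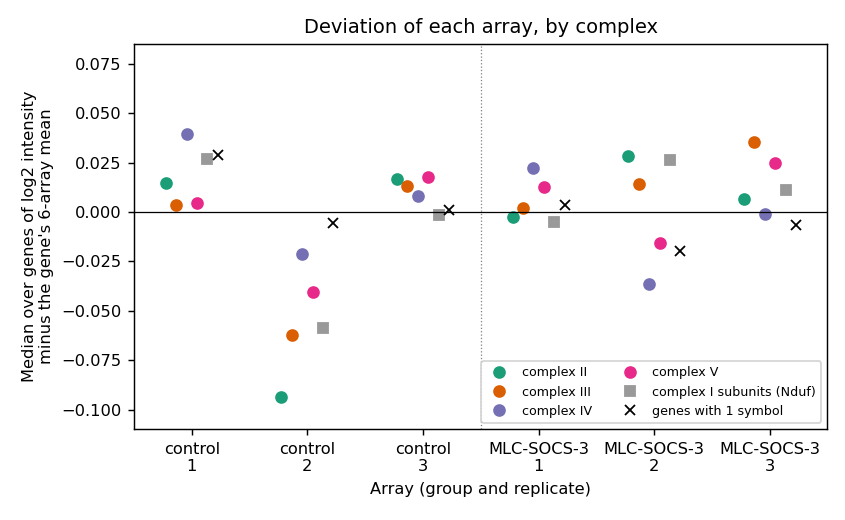
Median over the genes of a complex of the log2 intensity minus the gene's mean over the 6 arrays (vertical axis), for each array (horizontal axis), with complex I and all genes with 1 symbol for reference. Control replicate 2 lies below 0 in all 4 complexes and in complex I, at -0.021 to -0.094, while all genes lie at -0.0056 there.

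Markers of fibre types and of other cells are given beside these values because mitochondrial content differs between cells. In whole tissue, fewer cells of a type and less RNA per cell cannot be told apart. The 9 slow and oxidative fibre genes had array means of 8.15 to 8.43 in controls and 8.05 to 8.17 in the other group, which overlap, and all 9 differences were negative with a median of -0.15. Control replicate 1 was the highest array for this list at 8.43. The median deviation on that array was 0.0084 for the 47 genes and 0.0288 for all genes. The lowest arrays for the list were MLC-SOCS-3 replicates 3 (8.05) and 1 (8.07). On these 2 arrays the median deviation of the 47 genes was 0.0061 and 0.0132. It was -0.0425 on control replicate 2, where the list stood at 8.15. The 8 fast fibre genes spanned 14.04 to 14.06 and 14.02 to 14.08. White fat genes averaged 6.64 to 6.81 over the arrays labelled MLC-SOCS-3 and 6.41 to 6.51 over the controls, without overlap, with 6 of 6 positive and 3 of the 6 above the median probe set. Fibroblast and matrix genes spanned 10.29 to 10.37 in controls and 10.32 to 10.68 in the other group, with 6 of 6 positive, and macrophage genes 6.46 to 6.73 and 6.63 to 7.005, also with 6 of 6 positive. Tendon genes averaged 7.80 to 7.84 and, in controls, 7.89 to 8.09, also without overlap, with 1 of 6 positive. None of these marker genes passed limma's test over all probe sets. Their part in the values of Cox6a1 and the other subunit genes was not tested. Brown fat, which also uses Cox7a1 and Cox8b, had its 4 markers (Ucp1, Cidea, Elovl3 and Dio2) below the median probe set. The endothelial (8.68 to 8.89 and 8.67 to 8.79), Schwann cell (8.01 to 8.07 and 7.86 to 8.02), blood (6.26 to 6.40 and 6.24 to 6.34) and cardiac lists (6.06 to 6.33 and 6.04 to 6.21) overlapped between the groups, with 2 of 4 Schwann cell and 2 of 4 blood genes measured.

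Assembly factors of these complexes, the electron carrier cytochrome c and a few further components were read from a list of 42 genes. Of these, 36 were measured outside the 47 and none passed the test in either direction. Their differences were positive for 25 and negative for 11, with a median of 0.033, and 2 had an unadjusted p under 0.05 (5.56%, beside the 5.92% of all probe sets), both higher. These 2 lay below the median probe set. They were Cyct, the testis cytochrome c, at 2.82 in controls and 3.21 in the other group (0.39 ± 0.11, SE; limma adjusted p = 0.799), and Lyrm7, which helps to insert the Rieske protein, at 5.52 and 5.75 (0.23 ± 0.09). Next came Cox10 (0.13 ± 0.07) and Cox15 (0.18 ± 0.10), both enzymes that make the heme of cytochrome c oxidase. Cycs, the somatic cytochrome c, was at 12.62 and 12.66 (0.04 ± 0.08), and Ndufa4, now counted as a subunit of complex IV, at 13.32 and 13.34 (0.02 ± 0.06).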

How the data were processed

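Total RNA (300 ng per sample) was labelled and hybridised to 1 Affymetrix array per sample, 3 per group. Per the submitters' processing notes, the authors used Affymetrix Expression Console and RMA, a method that corrects background, equalises array distributions and summarises the probes of a set. The deposited values are log2 intensities, and software versions were not given in the labels. They were used without further normalization, since they are stated to be RMA values. Array medians ran from 5.98 to 6.04. Detection calls were not used here. The number of arrays limits the precision.

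The table's 35557 probe sets were compared with limma 3.58.1 under R 4.3.3 (linear model, default empirical Bayes, two-sided), with Benjamini-Hochberg adjustment over all of them and a threshold of 0.05. Intervals are 95% intervals on moderated errors. The platform annotation listed 23410 probe sets, 21789 with 1 symbol. Isoform balances were tested with exact permutation over arrays (scipy 1.17.1). Promoters came from the RefSeq table for GRCm38.p6. The limma step was tested on simulated data. Array values were described for up to 5 genes per complex with the smallest p, the isoform pairs and the c subunit genes; of other pathway genes, up to 4 with the smallest p, and Cycs and Ndufa4, chosen after their values were seen, were named. The members and lists were chosen with earlier results of these data known. The bounds of 1.25-fold and 1.5-fold and the count of differences under 0.1 were chosen after seeing the data. The 14 alternatives are given at the end. No array copied another, with at most 36 identical values in any pair.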

Additional observations from a re-analysis of the deposited data

How the results depend on the processing

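No member of complexes II to V passed limma's test under any of the 14 alternatives, with the smallest adjusted p of a member between 0.721 and 0.977. The count at an unadjusted p under 0.05 was 1 in the reported fit, 0 with the replicate number as a block, 2 with robust moderation along a mean-variance trend, and 0 to 2 when single arrays were left out. The titles share replicate numbers, but same-numbered arrays correlated at -0.026, -0.018 and -0.043 in their deviations from group means, so the numbers were not taken as pairs. With the replicate block the Cox6a1 difference kept its size (unadjusted p = 0.091 in limma). For the Cox6a2 minus Cox6a1 balance, an exact sign-flip test over same-numbered arrays gave p = 0.25. That is the smallest p that 3 pairs allow, so it cannot be set against the p of the unpaired test. Of the 25 genes described by array, 19 kept their sign in all alternatives run for them. The others were near 0. Cox8a turned to 0.016 and Sdhb to 0.007 with arrays centred on their medians, and Cox8a to 0.002 with array weights. With single arrays left out, the ranges were -0.020 to 0.026 for Cox8a, -0.031 to 0.007 for Sdhb, -0.002 to 0.051 for Sdha, -0.077 to 0.028 for Cox7a1, -0.025 to 0.066 for Atp5g2 and -0.001 to 0.046 for Atp5g3. The Cox7a1 minus Cox7a2 change ran from -0.089 to 0.021, and that of Cox6a2 minus Cox6a1 from -0.298 to -0.181. The filter on dim probe sets left 44 of the 47 genes. The causes of these shifts were not tested. With 3 arrays per group, small changes of these bright genes could be missed.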
